A study of Mus musculus with 8 samples.

Results

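The HSP70 and HSP110 chaperones described here are 9 mouse genes: Hspa1a, Hspa1b, Hsph1, Hspa4, Hspa4l, Hspa8, Hspa2, Hspa9 and Hspa14. They were chosen by name, as every probe set of the array whose platform symbol is one of the 9. A probe set is the group of short probes that reads one transcript. The array names 12393 genes through probe sets with a single symbol. The 9 genes have 22 of the 22626 probe sets on the array, and 21 of the 22 passed the filter on dim signals, which 13576 probe sets passed in all. No probe set of these genes carried more than 1 symbol, so none had to be marked as shared between Hspa1a and Hspa1b.

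HSP70 proteins bind unfolded stretches of other proteins and release them in a cycle driven by ATP. J-domain proteins (HSP40s) deliver the unfolded client and start ATP hydrolysis, and nucleotide exchange factors end the cycle by releasing ADP. The HSP110 proteins are large relatives of HSP70 that act as such exchange factors. Some of these genes are transcribed at all times and others are switched on by heat shock factor when proteins unfold, and the testis, which is kept cooler than the body, has its own germ cell form.

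The cells were TTE3, a Sertoli cell line. In the testis tubule, Sertoli cells are the somatic cells around the germ cells, which they support. The line comes from mice with a temperature-sensitive large T-antigen transgene of simian virus 40, a protein that keeps cells dividing and loses its function at 39 °C. RNA came from cells kept for 0, 6, 12 or 24 h at 39 °C. Each time had 2 samples, on 8 arrays in all. Every group carries the T-antigen, and all samples come from this 1 line. The sources used here do not give the promoter of the transgene or the culture temperature before the shift. Cells after 0 h differ from cells at 0 h in temperature, in time and in T-antigen state, and these cannot be told apart. Whether the 2 samples of a time were separate cultures is not in the labels. The p-values below therefore rest on a spread between arrays that may be technical only.

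The 8 arrays had median signals between 138 and 154.3 units. Arrays of the same time had a Pearson r of 0.979 to 0.986 on the log2 scale over probe sets, whose values do not count as replicates. For arrays of different times r was 0.967 to 0.979, so the ranges nearly met. Of 18 Sertoli markers, 16 were on the array with a probe set of their own and 10 passed the filter, among them Sox9, Wt1, Gata4, Kitl and Inha, while Amh, Fshr, Dhh, Gdnf, Rhox5 and Cldn11 were below it. Amh, the anti-Müllerian hormone gene, read 3.5 to 13.8 units. The summed Sertoli signal was 24922 to 25214 units at 0 h, 22453 to 27346 at 6 h, 28258 to 28710.0 at 12 h and 25103 to 25750.2 at 24 h, with 1 array of 6 h below the 0 h arrays and the other above them. Vim carried most of this sum, with time means between 15693 and 19860 units, while Clu averaged 3764 units at 24 h, against 1366 at 0 h. Of 10 germ cell markers, Kit passed the filter and the other 9, which include Ddx4, Dazl, Sycp3 and Tnp1, did not. The summed germ cell signal was 1427 to 1465 units at 24 h, against 483 to 630.1 at 0 h. Kit, which made up most of the 24 h sum, averaged 1224 and 301 units at these times. The 9 dim markers averaged 8.8 (Tnp1) to 53.45 units (Prm1) at 24 h and went both ways. Ddx4, Sycp1, Prm1, Prm2, Acrv1 and Stra8 were lower than at 0 h, while Dazl, Sycp3 and Tnp1 were higher. The summed Leydig cell signal was 248 to 326 units at 24 h, against 96.8 to 158 at 0 h, with 1 of 4 markers above the filter. That marker, Star, averaged 259 units at 24 h and 105 at 0 h. The macrophage and blood sum (2 of 5 markers above the filter) was 557 to 567 units at 24 h, against 428 to 529.7 at 0 h. Of its markers above the filter, Cd68 averaged 310 units at 24 h and 200 at 0 h, while Csf1r averaged 123 and 167. The endothelial sum (0 of 4) was 181 to 213 at 24 h, against 146 to 148 at 0 h. Of these dim markers, Pecam1 averaged 63 units at 24 h and 10.2 at 0 h, while Kdr averaged 72 and 76.7. The peritubular and smooth muscle sum (2 of 5) was 270.6 to 359 at 24 h, against 283 to 347 at 0 h, and these ranges overlapped. The part of other cell types in the results was not tested. The array reads RNA of the whole culture, so fewer cells of a type and less RNA per cell cannot be told apart.

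The promoters of the 3 genes with the largest changes are shown because the heat shock factor binds inverted GAA repeats, and because Hspa1a and Hspa1b are near copies of each other. The sequences are those of RefSeq on GRCm38.p6, read 5′ to 3′ on the minus strand. The windows of Hspa1a (chr17:34972157-34972406) and Hspa1b (chr17:34959239-34959488) are the 250 bases before the gene's start. The stretch of Hsph1 (chr5:149636351-149636380) is 30 bases around its match. Capitals mark a match to GAANNTTC or to TTCNNGAA, each of which is its own reverse complement, so that both strands were searched.
Hspa1a: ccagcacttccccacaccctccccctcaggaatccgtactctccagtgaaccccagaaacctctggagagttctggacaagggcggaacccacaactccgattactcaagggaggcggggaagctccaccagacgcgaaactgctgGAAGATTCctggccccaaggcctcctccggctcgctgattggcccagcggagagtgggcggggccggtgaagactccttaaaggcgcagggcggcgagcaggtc
Hspa1b: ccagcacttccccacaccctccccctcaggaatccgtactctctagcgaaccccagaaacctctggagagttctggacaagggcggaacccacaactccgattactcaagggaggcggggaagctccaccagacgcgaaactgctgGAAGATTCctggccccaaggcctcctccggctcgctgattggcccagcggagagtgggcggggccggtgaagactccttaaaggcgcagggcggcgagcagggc
Hsph1: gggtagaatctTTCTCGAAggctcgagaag

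The Hspa1a and Hspa1b windows had the same base at 247 of 250 positions (98.8%), and in both the match began 104 bases before the start. In Hsph1 the match began 54 or 33 bases before the 2 starts whose windows were searched. The annotated gene reaches further upstream, to base 149636498, so the match lies inside it. The bases before that outermost start were not searched. Windows of 7 of the 9 genes were at hand, and Hspa8 and Hspa9 had none. The windows of Hspa4, Hspa4l, Hspa2 and Hspa14 held neither motif. Those of Hspa4l and Hspa2 lie inside the annotated genes, so the bases before their outermost starts were not searched. Of 32851 mouse promoter windows of this length, 6.69% held GAANNTTC, 7.17% held TTCNNGAA and 12.8% held either. The longer forms with 3 repeat units in place of 2, searched on both strands as well, were in no window of the 7 genes. They were in 0.466% of all windows. A match is a description of the letters and not a measured binding site.

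At 6 h Hspa1a, Hspa1b and Hsph1 had the largest rises of all probe sets tested, Hspa4, Hspa4l and Hspa8 had smaller calls, and Hspa2, Hspa9 and Hspa14 had none. A probe set was called where limma's moderated test, adjusted by Benjamini-Hochberg over all 13576 probe sets, gave an adjusted p below 0.05. At 6 h against 0 h, 12 of the 21 probe sets rose and 1 fell. Of all probe sets 18.0% were called in that comparison, 8.65% as higher and 9.33% as lower. A rise of at least 2-fold was seen for 10 of the 21, against 1.19% of all. The median log2 change was 0.65 over the 21 and 0.00 over all probe sets tested.

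Hspa1a and Hspa1b encode the stress-inducible HSP70 of the cytosol, and both lie on chromosome 17. The Hspa1a probe set 1452388_at read 269.9 and 307 units at 0 h, 3403 and 4085 at 6 h, 918 and 1090.1 at 12 h, and 551 and 669 at 24 h. The lowest 6 h array was above every array of the other times, and no 2 times overlapped. With 2 arrays a time, such gaps also occur without a call, as for Hspa2 at 6 h against 0 h. Their share over all probe sets was not computed. Its log2 change at 6 h against 0 h was 3.60 ± 0.14 (± SE of the fit; 12.1-fold, limma adjusted p = 7.12e-08), which ranked 1 of the 13576 probe sets from the highest. The order of its levels was 6 h, 12 h, 24 h and 0 h, and each step in that order passed the test.

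Hspa1b had 3 probe sets, which gave the same time course. Probe set 1427126_at read 940.3 and 819 units at 0 h, 7106 and 8082 at 6 h, 2313 and 2571 at 12 h, and 1579 and 1944 at 24 h. Probe set 1452318_a_at read 816 and 926 units at 0 h, 7476 and 7919 at 6 h, 2956 and 2846 at 12 h, and 1566 and 1883 at 24 h. The third, 1427127_x_at, read 1322 and 1414 units at 0 h, 12988 and 10905 at 6 h, 4939.5 and 3468 at 12 h, and 2709 and 2849 at 24 h. In none of the 3 did the arrays of any 2 times overlap. Their log2 changes at 6 h against 0 h were 3.08 ± 0.13, 3.11 ± 0.11 and 3.10 ± 0.15, from 8.45- to 8.66-fold, with limma adjusted p between 3.29e-08 and 4.12e-07. Over the 8 arrays the 3 probe sets correlated with r between 0.980 and 0.991, values that share arrays and time course. Because the 2 genes are so alike, the split of signal between Hspa1a and Hspa1b is uncertain, and an _x_at probe set can also read other transcripts.

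Hsph1 encodes HSP105, the stress-inducible HSP110 protein. Its probe set 1423566_a_at read 669.6 and 662 units at 0 h, 6191 and 6412 at 6 h, 2801 and 3072 at 12 h, and 1694 and 1812 at 24 h. Probe set 1425993_a_at read 972 and 952 units at 0 h, 9279.7 and 7919 at 6 h, 5030.3 and 4683 at 12 h, and 2501 and 2371 at 24 h. The times were again fully apart in both, in the order 6 h, 12 h, 24 h and 0 h. Log2 changes at 6 h against 0 h were 3.20 ± 0.09 (9.19-fold) and 3.13 ± 0.10 (8.74-fold), each with a limma adjusted p of 1.51e-08. The probe sets of Hspa1a, Hsph1 and Hspa1b filled ranks 1 to 6 of all probe sets tested, Hsph1 at 2 and 3 and Hspa1b at 4, 5 and 6. The plot of signal by array shows these genes beside Hspa4 and Hspa4l.

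**Figure D1:**
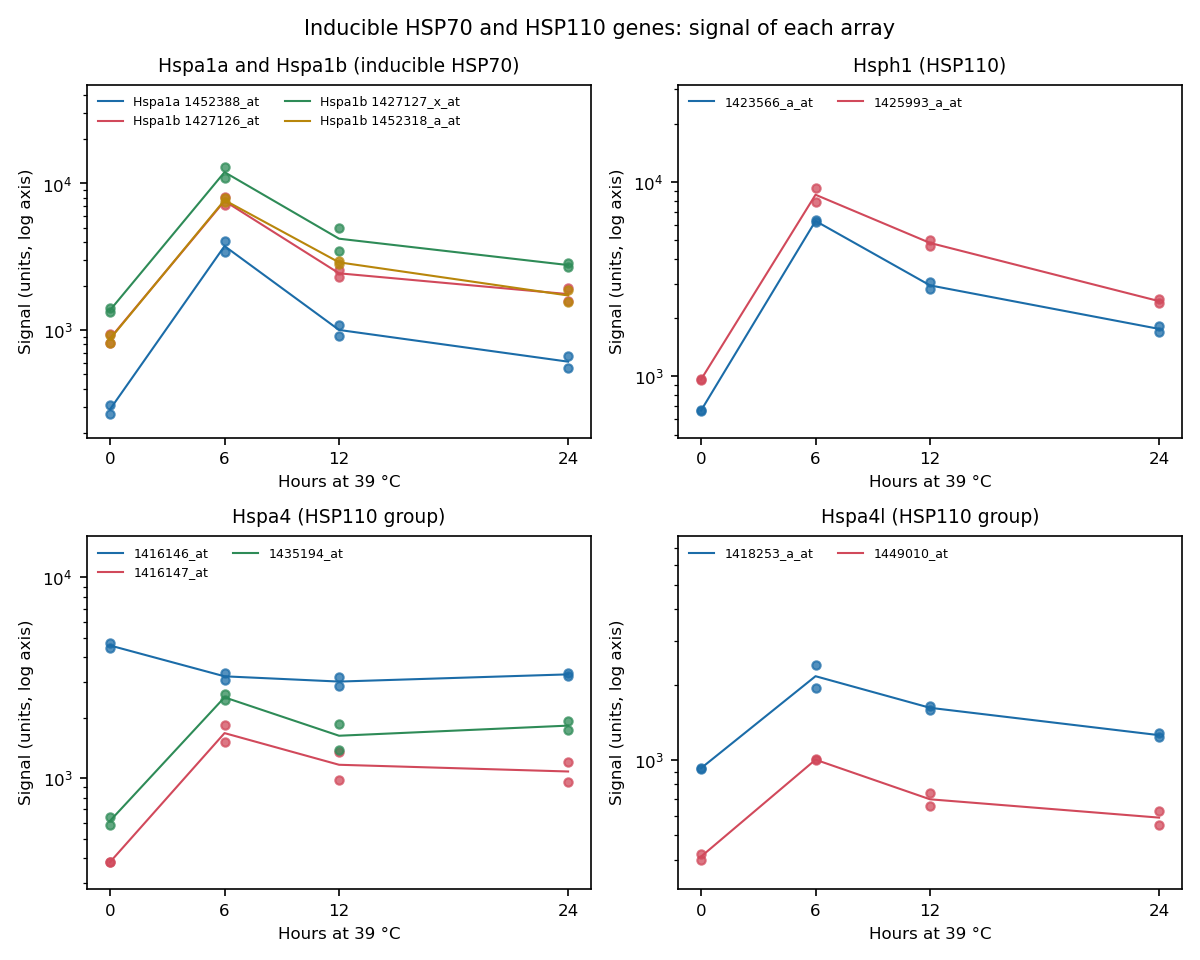
Signal of each array (points, units on a log axis) against hours at 39 °C for the probe sets of Hspa1a and Hspa1b, Hsph1, Hspa4 and Hspa4l, with lines through the mean of the 2 arrays of a time. Every probe set but Hspa4 1416146_at is highest at 6 h and above its 0 h arrays at 12 and 24 h.

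Hspa4 and Hspa4l encode the other HSP110 proteins of the cytosol, also known as APG-2 and APG-1. The Hspa4 probe sets disagreed. Probe set 1416147_at read 383 and 382 units at 0 h, 1844 and 1514 at 6 h, 1350.2 and 985 at 12 h, and 1202 and 960.2 at 24 h. Probe set 1435194_at read 588 and 640.1 units at 0 h, 2618 and 2442 at 6 h, 1873 and 1385 at 12 h, and 1928 and 1731 at 24 h. Both rose at 6 h against 0 h, by 2.06 ± 0.16 (4.18-fold, limma adjusted p = 2.2e-05) and 2.01 ± 0.14 (4.01-fold, limma adjusted p = 7.07e-06), at ranks 11 and 14 of all probe sets.

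The third Hspa4 probe set, 1416146_at, moved the other way. It read 4727 and 4443 units at 0 h, 3344 and 3094 at 6 h, 3189 and 2873 at 12 h, and 3349 and 3235 at 24 h. All arrays after 0 h were below both 0 h arrays, while the 3 later times overlapped in part. Its log2 changes against 0 h were -0.51 ± 0.10 at 6 h, -0.59 at 12 h and -0.47 at 24 h, with limma adjusted p of 0.00479, 0.00127 and 0.00306. The 6 h call did not pass without 0 h replicate 1 (adjusted p = 0.0651). Over the 8 arrays it correlated with the other Hspa4 probe sets at r = -0.85 and -0.84, and those correlated with each other at 0.988. Which transcript forms the 3 probe sets read was not tested, so no single direction is given for Hspa4.

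Hspa4l had smaller changes that its 2 probe sets shared. Probe set 1418253_a_at read 923 and 932 units at 0 h, 2392 and 1932 at 6 h, 1586 and 1647 at 12 h, and 1278 and 1236 at 24 h. Probe set 1449010_at read 401 and 422 units at 0 h, 999 and 1007 at 6 h, 656 and 738 at 12 h, and 629 and 549 at 24 h. In both, the 6 h arrays were the highest and the 0 h arrays the lowest. The rises at 6 h against 0 h were 1.19 ± 0.11 (2.29-fold) and 1.24 ± 0.12 (2.37-fold), both with a limma adjusted p of 7.36e-05.

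Hspa8 encodes HSC70, the HSP70 that cells make at all times. Its 4 probe sets differed in their calls, though the log2 change at 6 h against 0 h was above 0 in each, from 0.12 to 0.65. Probe set 1420622_a_at read 5049 and 4673 units at 0 h, 7396 and 7853 at 6 h, 5176 and 5329 at 12 h, and 5164 and 5738 at 24 h. Its 6 h arrays stood alone above the rest, with a log2 change at 6 h against 0 h of 0.65 ± 0.09 (1.57-fold, limma adjusted p = 0.00117). Against 0 h it was not called at 12 h (0.11, adjusted p = 0.42) or at 24 h (0.16, adjusted p = 0.213).

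The second Hspa8 probe set, 1420623_x_at, read 13945 and 12861 units at 0 h, 18215 and 16906 at 6 h, 16007 and 16709 at 12 h, and 14353 and 13711 at 24 h. Its 6 h call was small (0.39 ± 0.09, 1.31-fold, limma adjusted p = 0.0141) and was lost when either 0 h array was left out (adjusted p = 0.0657 for replicate 1 and 0.148 for replicate 2), with no filter (0.066) and with no variance trend (0.0514). Its 12 h call against 0 h (0.29, limma adjusted p = 0.0408) was lost in 10 of 17 alternative settings, among them the fits without either 0 h, 12 h or 24 h array (adjusted p from 0.0706 to 0.273) and quantile normalization, where the log2 change was 0.09. The remaining 2 were not called at any time against 0 h. Probe set 1431182_at was dim, at 67.3 to 119.7 units. At 6 h against 0 h it had a log2 change of 0.37 with a 95% interval of -0.11 to 0.86. That of 1455789_x_at was 0.12 with an interval of -0.22 to 0.47. The 6 h arrays of 1455789_x_at read 21287 and 14452 units, the widest pair of its 4 times, and without 6 h replicate 2 it passed (0.40, adjusted p = 0.0245).

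Hspa2 encodes the HSP70 of spermatocytes, which in mice is needed for male meiosis. Its probe set 1417101_at read 265 and 282 units at 0 h, 255 and 244 at 6 h, 235 and 273 at 12 h, and 314 and 270.0 at 24 h. The arrays of 0 h overlapped with those of 12 h and 24 h, while both 6 h arrays were below both 0 h arrays. No change was called against 0 h: the log2 change was -0.12 at 6 h (95% interval -0.44 to 0.20), -0.10 at 12 h and 0.08 at 24 h (95% interval -0.24 to 0.41). With 2 arrays a time, a rise or fall of a size within these intervals is not excluded.

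Hspa9 encodes mortalin, the HSP70 of the mitochondrial matrix, which pulls imported proteins through the inner membrane and folds them. Its probe set 1418504_at read 3615 and 3531 units at 0 h, 3377 and 3661 at 6 h, 3081 and 2782 at 12 h, and 2478 and 2655 at 24 h. The 0 h and 6 h arrays overlapped, and both 24 h arrays were below all others. It fell by 0.47 ± 0.10 on the log2 scale at 24 h against 0 h (limma adjusted p = 0.00316). At 12 h its log2 change of -0.29 missed the threshold (adjusted p = 0.0513), and it passed in 7 alternatives, with adjusted p from 0.023 to 0.0459.

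The other Hspa9 probe sets were less even. Probe set 1418503_at read 2261 and 3037 units at 0 h, 992 and 2652 at 6 h, 1862 and 1490.4 at 12 h, and 1430 and 1510 at 24 h, so its 6 h arrays differed from each other by more than the means of any 2 times. No change of it was called (24 h against 0 h -0.83 ± 0.33, adjusted p = 0.0756; 6 h against 0 h -0.68 ± 0.33, adjusted p = 0.175). With 6 h replicate 2 left out, the 6 h value was -1.38 (adjusted p = 5.7e-04), and with 6 h replicate 1 left out it was 0.02. Without either 6 h array the 24 h fall passed, with adjusted p of 0.00103 and 0.00107, as it did with only the 2 times fitted (3.4e-04) and with median-centred arrays (0.0418). Probe set 1431274_a_at had a log2 change of -0.47 at 24 h against 0 h, which did not pass (adjusted p = 0.118) but did with median-centred arrays (0.0452) and with only the 2 times fitted (0.0261), and 1453811_at, at 7.5 to 74.4 units, was too dim to be tested.

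Hspa14 encodes an HSP70 that in mammalian cells pairs with the J-domain protein DNAJC2 at the ribosome. Its probe set 1448586_at read 883 and 795 units at 0 h, 797 and 851 at 6 h, 926 and 957 at 12 h, and 1019 and 929 at 24 h. The 0 h and 6 h arrays overlapped, and the 12 and 24 h arrays were above both 0 h arrays. No change against 0 h was called, with log2 changes of -0.02 at 6 h (95% interval -0.26 to 0.21), 0.16 at 12 h and 0.21 at 24 h (adjusted p = 0.163). Probe set 1417095_a_at, at 102.8 to 171.7 units, was not called either, and the 2 correlated at only r = 0.167 over the 8 arrays.

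**Figure D2:**
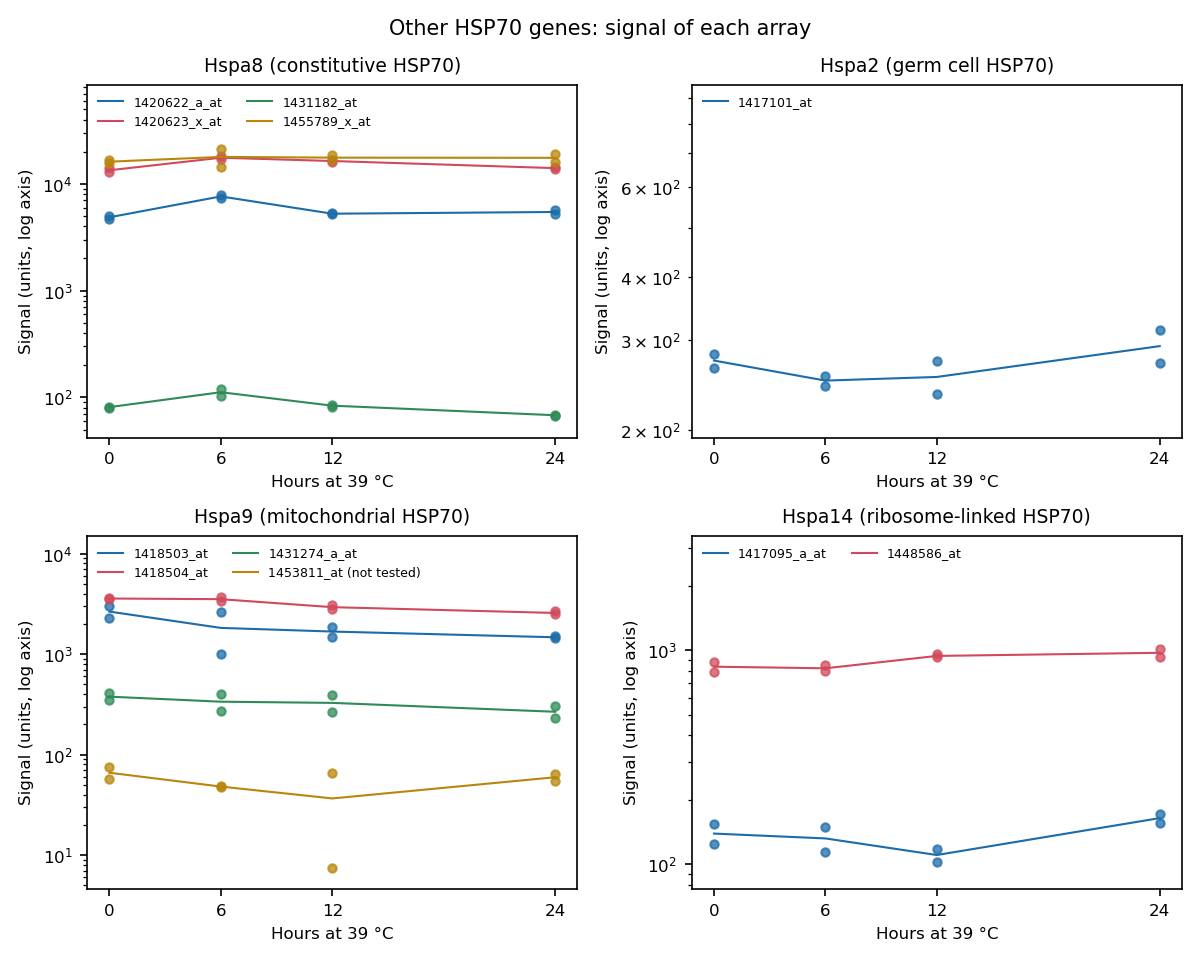
Signal of each array (points, units on a log axis) against hours at 39 °C for the probe sets of Hspa8, Hspa2, Hspa9 and Hspa14, with lines through the mean of the 2 arrays of a time. The 6 h peak of Hspa8 1420622_a_at, the low 24 h arrays of Hspa9 1418504_at and the split 6 h arrays of Hspa9 1418503_at can be seen.

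At 12 h the inducible members were still high. Against 0 h, 11 of the 21 probe sets rose and 1 fell. Of all probe sets 24.0% were called, 12.1% as higher and 11.9% as lower. The rise was 3.30-fold for Hspa1a (log2 1.72, limma adjusted p = 1.78e-05), 2.73- to 3.28-fold for Hspa1b, and 4.30- and 4.96-fold for Hsph1 (both limma adjusted p = 1.98e-07). Hspa4 1416147_at and 1435194_at rose by 1.54 and 1.36 on the log2 scale, and Hspa4l by 0.79 and 0.73. Hsph1 now ranked above both Hspa1 genes, at 10 and 15 of all probe sets tested, and Hspa1a at 36. A rise of at least 2-fold was called for 8 of the 21, against 1.94% of all.

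At 24 h against 0 h, 10 of the 21 rose and 2 fell. Of all probe sets 32.9% were called, 17.1% as higher and 15.8% as lower. A rise of at least 2-fold was left for 6 of the 21, against 3.70% of all. Hspa1a was 2.03-fold higher (log2 1.02 ± 0.14, limma adjusted p = 2.74e-04), Hspa1b 1.95- to 2.02-fold and Hsph1 2.58- and 2.50-fold. Hspa4 1416147_at and 1435194_at were 2.71- and 2.91-fold higher (limma adjusted p = 7.11e-05 and 1.45e-05). Hspa4l was 1.35- and 1.41-fold higher (limma adjusted p = 0.0129 and 0.00787). The first of its probe sets did not pass without any one of the 0 h or 24 h arrays (adjusted p from 0.0581 to 0.0817) or with median-centred arrays (0.0515), nor the second without 0 h replicate 1 (0.0666) or 24 h replicate 1 (0.0844). No call of Hspa1a, Hspa1b or Hsph1 against 0 h was lost in any of the 17 alternatives run. The plot of changes against 0 h shows the 3 comparisons side by side. They share the 0 h arrays.

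**Figure D3:**
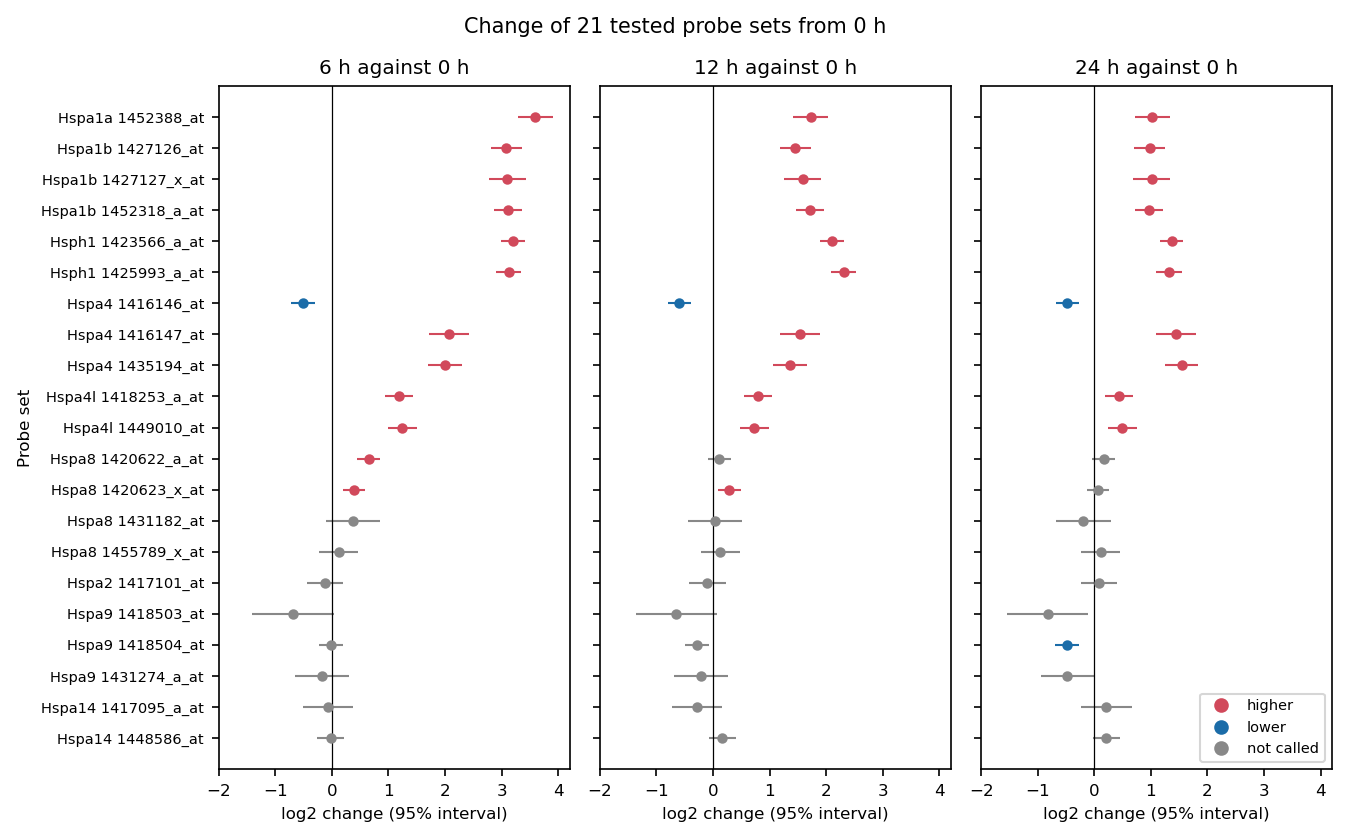
Log2 change against 0 h of the 21 tested probe sets at 6, 12 and 24 h (points, with 95% intervals of the fit as bars), coloured by the call. The 6 probe sets of Hspa1a, Hspa1b and Hsph1 lie above 3 at 6 h and between 0.96 and 1.37 at 24 h, and those of Hspa2 and Hspa14 have intervals that include 0 throughout.

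The return after 6 h was tested between the later times. These comparisons share the 6 h or 12 h arrays with each other and with those above, so they do not count as separate evidence. At 24 h against 6 h, 13 of the 21 probe sets fell and 0 rose. Of all probe sets 24.9% were called, 11.3% as lower and 13.6% as higher. Hspa1a fell by 2.58 on the log2 scale (limma adjusted p = 1.55e-06), which ranked 2 of 13576 from the lowest. The Hspa1b probe sets changed by -2.10, -2.09 and -2.15, and the Hsph1 probe sets by -1.83 and -1.81, at ranks between 5 and 13. Hspa4l fell by 0.76 and 0.75, and Hspa9 1418504_at by 0.45 (limma adjusted p = 0.00582, 0.0637 without 24 h replicate 1).

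Smaller 24 h falls against 6 h depended on single arrays or on settings of the fit. Hspa4 1416147_at fell by 0.63 (limma adjusted p = 0.0161) but not without 24 h replicate 2 (0.143) or 6 h replicate 1 (0.0898). Hspa4 1435194_at fell by 0.46 (limma adjusted p = 0.0286) but not without 6 h replicate 1 (0.0989), 24 h replicate 1 (0.0704) or 24 h replicate 2 (0.178), nor with no filter (0.0572) or no variance trend (0.0712). For Hspa8 1420622_a_at (-0.48, limma adjusted p = 0.00349) only the fit without 24 h replicate 1 ended the call (0.0512), and for Hspa8 1420623_x_at (-0.32, limma adjusted p = 0.0248) those without either 0 h or 24 h array did (0.0507 to 0.156). The Hspa8 1420623_x_at call was also lost with no filter (0.0992), with no variance trend (0.0731), with only the 2 times fitted (0.0897) and with quantile normalization (-0.18, adjusted p = 0.106).

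Part of that return had taken place by 12 h. At 12 h against 6 h, 10 of the 21 fell and 0 rose. Of all probe sets 8.32% were called, 3.71% as lower and 4.61% as higher. Hspa1a fell by 1.88 and Hspa1b by 1.63, 1.52 and 1.40 on the log2 scale, at ranks 3, 4, 6 and 10 from the lowest. Hsph1 fell by 1.10 (limma adjusted p = 1.81e-04) and 0.82 (0.00145), Hspa8 1420622_a_at by 0.54 (0.00793) and Hspa4 1435194_at by 0.64 (0.0184). The Hspa4 call did not pass without 12 h replicate 2 (0.111) or 6 h replicate 1 (0.0507), with no variance trend (0.0591) or with only the 2 times fitted (0.0707). With only the 2 times fitted the Hspa8 call was lost as well (0.0592). The Hspa4l falls (-0.41 and -0.51, limma adjusted p = 0.0491 and 0.0249) did not pass without either 0 h or either 12 h array (adjusted p from 0.0507 to 0.161), and for the first probe set without 6 h replicate 1 (0.162) or either 24 h array (0.0845 and 0.0841) as well. Both were also lost with no variance trend (0.107 and 0.053) and with only the 2 times fitted (0.164 and 0.0901), and the first with no filter (0.0772), an offset of 1 (0.0504) and quantile normalization (0.0597).

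At 24 h against 12 h, 6 of the 21 fell and 0 rose, and the 6 were those of Hspa1a, Hspa1b and Hsph1. Of all probe sets 6.88% were called, 3.11% as lower and 3.77% as higher. Hsph1 fell by 0.74 and 0.99 (limma adjusted p = 0.00192 and 9.01e-04). Hspa1a fell by 0.70 (limma adjusted p = 0.016) and Hspa1b by 0.47, 0.57 and 0.75 (0.046, 0.0427 and 0.00401). With 24 h replicate 1 left out 2 of the 21 passed, and with 24 h replicate 2 left out 3 did. The Hspa1a call did not pass without 12 h replicate 2 (0.101), 24 h replicate 1 (0.142) or 24 h replicate 2 (0.0611). Hspa1b 1427126_at did not pass without any one of the 0 h, 12 h or 24 h arrays (0.0743 to 0.308), 1427127_x_at without either 0 h array, 12 h replicate 1 or either 24 h array (0.0778 to 0.231), and 1452318_a_at without 24 h replicate 1 (0.0589). With no variance trend the calls of Hspa1a (0.0583), 1427126_at (0.121) and 1427127_x_at (0.12) were lost, and with no filter those of 1427126_at (0.0895) and 1427127_x_at (0.1). Quantile normalization ended that of 1427126_at (0.0694).

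How much of the 6 h rise was left was computed for the 12 probe sets called higher at 6 h against 0 h. No test between members was run. Choosing probe sets by their 6 h values can by itself lower the shares. The share left is the mean signal above that at 0 h, as a percentage of the mean rise at 6 h, with the values of the 2 arrays of the later time in brackets. For Hspa1a it was 20.7% at 12 h (18.2 and 23.2) and 9.31% at 24 h (7.60 and 11.01). For the Hspa1b probe sets it was 23.3% to 29.7% at 12 h and 12.5% to 13.3% at 24 h. Hsph1 was at 40.3% and 51.0% at 12 h and at 19.3% in both probe sets at 24 h, and all Hsph1 arrays were above those of Hspa1a and Hspa1b at both times.

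The other HSP110 genes were as follows. Hspa4l had 55.8% and 48.3% left at 12 h and 26.7% and 30.0% at 24 h. Hspa4 1416147_at had 60.6% left at 12 h and 53.9% at 24 h (44.6 and 63.2), and 1435194_at had 53.0% and 63.4% (58.3 and 68.6). In these Hspa4 probe sets no change was called at 24 h against 12 h (log2 -0.10 with a 95% interval of -0.46 to 0.25, and 0.18 with an interval of -0.12 to 0.48). Hspa8 1420622_a_at had 14.2% left at 12 h and 21.4% at 24 h, and Hspa8 1420623_x_at had 71.1% and 15.1%. The difference in shares between genes was not tested. The plot of the shares shows them by probe set.

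**Figure D4:**
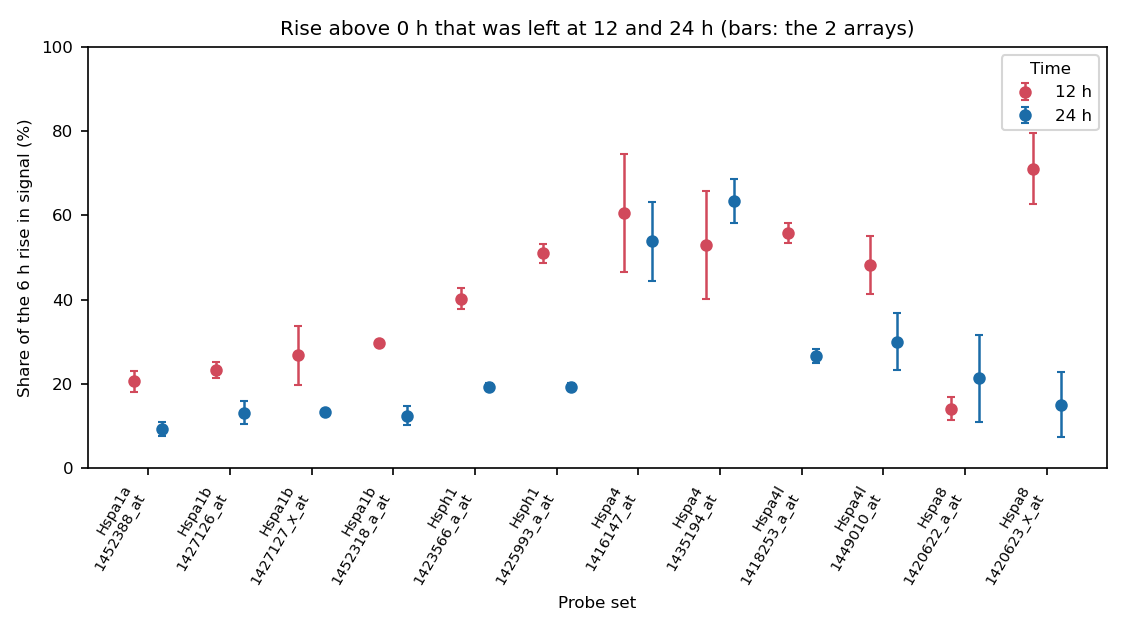
Share of the 6 h rise in signal (percent, mean signal above 0 h) that was left at 12 h and at 24 h, for the 12 probe sets that rose at 6 h. Points are means and bars span the 2 arrays of the time, and at 24 h the points run from 9.31% for Hspa1a to 63.4% for Hspa4 1435194_at.

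Over the 4 times together, limma's moderated F-test called 14 of the 21 probe sets, where 40.1% of all probe sets tested were called. The 14 were all probe sets of Hspa1a, Hspa1b, Hsph1, Hspa4 and Hspa4l, Hspa8 1420622_a_at and 1420623_x_at, and Hspa9 1418504_at. The 7 that did not pass were Hspa2, both probe sets of Hspa14, and 2 each of Hspa8 and Hspa9, with adjusted p from 0.18 to 0.855.

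The genes that work with HSP70 were described as a list. Its 34 relatives and partners had 27 genes with 48 probe sets tested. At 6 h against 0 h, 15 of the 48 (31.2%) rose and 1 (2.08%) fell, where 8.65% and 9.33% of all probe sets did, and their median log2 change was 0.17. At 12 h 12 (25.0%) rose and 5 (10.4%) fell, where 12.1% and 11.9% of all did, with a median of 0.10. At 24 h 8 (16.7%) rose and 13 (27.1%) fell, where 17.1% and 15.8% of all did, with a median of -0.02, so the share that rose was near that of all probe sets. The 24 h count of 21 came to 10 when 0 h replicate 1 was left out, to 13 when 0 h replicate 2 was, and to 12 when 24 h replicate 2 was. The 12 h count of 17 came to 11 when 0 h replicate 1 was left out. At 24 h against 6 h 1 (2.08%) rose and 17 (35.4%) fell, where 13.6% and 11.3% of all did (11 called in all without 24 h replicate 1 and 8 without 24 h replicate 2).

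Among the J-domain proteins, 7 of 19 probe sets rose at 6 h against 0 h and 0 fell, where 8.65% and 9.33% of all did. Dnaja1, which encodes a cytosolic HSP40, read 5070 and 4454 units at 6 h, against 2036 and 2102 at 0 h, in 1460179_at (log2 1.19 ± 0.09, limma adjusted p = 2.22e-05). Its other probe set rose by 0.78 (limma adjusted p = 0.00218). Dnajb1, the main stress-inducible HSP40 gene, rose by 0.78 and 0.59 (limma adjusted p = 0.00114 and 0.00394). Dnajb2 rose by 1.19 ± 0.15 (limma adjusted p = 4.72e-04) at 6 h and by 1.15 at 24 h against 0 h (limma adjusted p = 1.8e-04). At 12 h its arrays, at 219 and 222 units, lay below those of 6 h and 24 h, and the log2 change against 0 h was 0.71 (limma adjusted p = 0.00591, 0.0589 without 0 h replicate 2).

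Of the exchange factors outside the HSP110 group, 1 of 7 probe sets rose at 6 h against 0 h and 1 fell, near the 8.65% and 9.33% of all probe sets. Bag3, which links HSP70 to the small heat shock proteins and to autophagy, read 421 and 423 units at 0 h, 635 and 723 at 6 h, 481 and 482 at 12 h, and 277 and 316 at 24 h. Its arrays at 24 h were below both 0 h arrays. It rose at 6 h (0.66 ± 0.12, limma adjusted p = 0.00512) and fell at 24 h against 0 h (-0.48, limma adjusted p = 0.0123), a fall that did not pass without 0 h replicate 1 (0.0705), 0 h replicate 2 (0.0704) or 24 h replicate 1 (0.107). Bag5 fell by 0.83 at 6 h (limma adjusted p = 0.0123), a call lost without 0 h replicate 1 (0.117) or 6 h replicate 1 (0.0609). Hspbp1, an exchange factor gene, was not called at 6 h (0.17, adjusted p = 0.376) or at 24 h against 0 h (-0.27, adjusted p = 0.121).

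Of the adaptor probe sets, 3 of 5 rose at 6 h against 0 h, where 8.65% of all did. Stip1 encodes HOP, which joins HSP70 to HSP90, and it rose by 0.83 ± 0.09 at 6 h (limma adjusted p = 2.11e-04) and 0.61 at 12 h (8.48e-04) but not at 24 h (0.04, adjusted p = 0.788). St13 encodes HIP, which holds HSP70 in its ADP form, and 1460193_at rose by 0.76 at 6 h (limma adjusted p = 8.43e-04). Stub1, the ubiquitin ligase gene CHIP, was not called at 6 h, though 1416580_a_at was lower without 6 h replicate 1 (-0.45, adjusted p = 0.024). In its probe set 1434412_x_at it fell at 24 h against 0 h by 0.53 (limma adjusted p = 0.00331, 0.0512 without 0 h replicate 1).

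Other compartments have HSP70s and partners of their own. Hspa5, which encodes the endoplasmic reticulum HSP70 known as BiP, rose by 0.88 and 0.76 at 6 h (limma adjusted p = 8.44e-04 and 0.00194) and was 0.71 and 0.96 higher on the log2 scale at 24 h (0.00107 and 1.64e-04). At 24 h against 6 h it was not called (-0.17 and 0.19, adjusted p = 0.343 and 0.28), though the second passed without 6 h replicate 2 (0.38, adjusted p = 0.0156). Hyou1, its HSP110-like exchange factor, was not called at 6 h in any of 3 probe sets (0.65, 0.17 and 0.60, adjusted p = 0.0909, 0.359 and 0.103). Without 6 h replicate 2, 1423290_at (1.01, adjusted p = 0.014) and 1451913_a_at (0.85, adjusted p = 0.0458) passed.

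Grpel1 encodes an exchange factor of mitochondrial HSP70, and it fell by 0.42 at 24 h against 0 h (limma adjusted p = 0.00674, 0.0566 without 0 h replicate 1). Hspa9 1418504_at fell by 0.47 in the same comparison. Of the 9 mitochondrial partner probe sets tested, 2 fell and 0 rose at 24 h against 0 h, with a median log2 change of 0.02. Among all probe sets 15.8% fell and 17.1% rose there. At 6 h against 0 h 2 of the 9 rose and 0 fell, where 8.65% and 9.33% of all did. Dnajc2, the ribosomal partner of Hspa14, fell by 1.05 and 0.80 at 24 h against 0 h in 2 of 3 probe sets (limma adjusted p = 5.1e-05 and 8.47e-04), while Hspa14 had no call. The heat shock factor genes Hsf2 and Hsf4 were too dim to be tested, and Hsf1 was not analysed here.

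**Figure D5:**
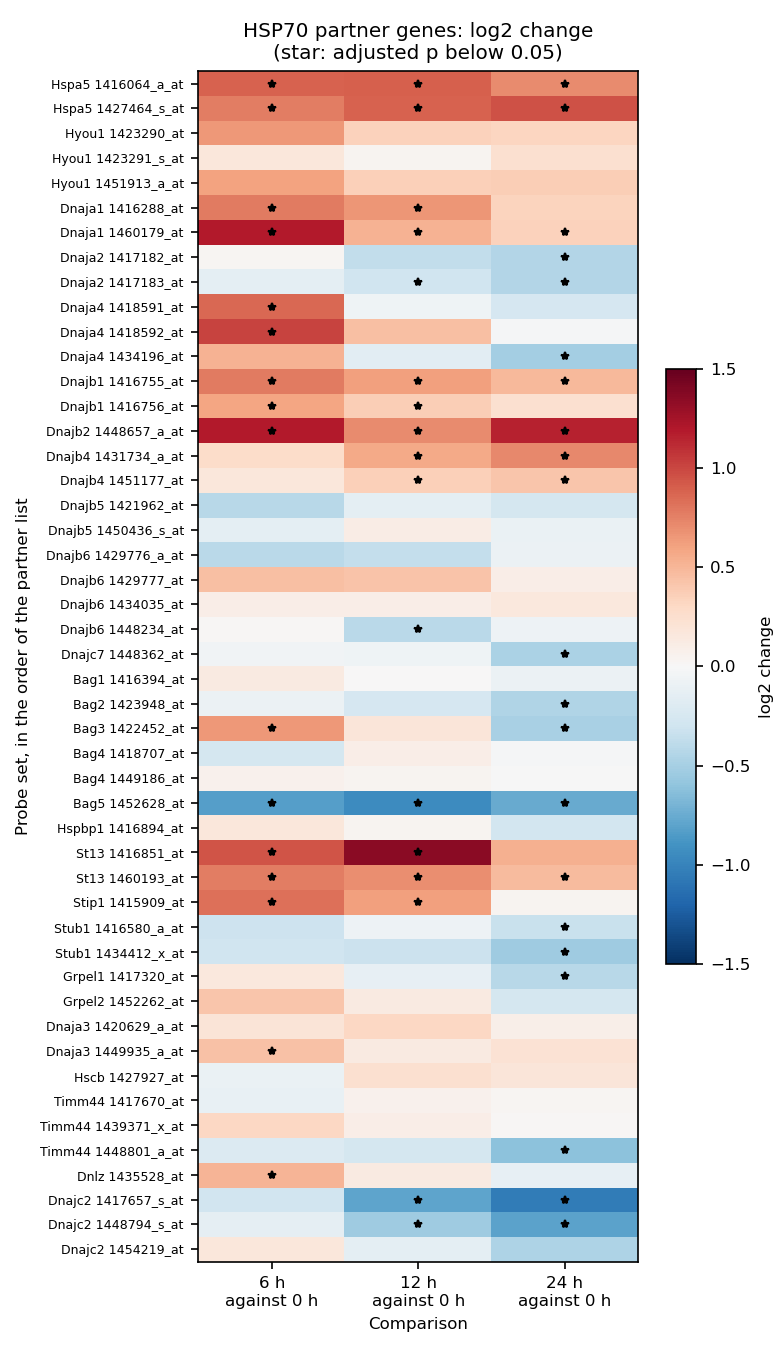
Log2 change against 0 h at 6, 12 and 24 h (columns) of the 48 tested probe sets of 27 HSP70 relatives and partners (rows, in the order of the list), with a star where the adjusted p is below 0.05. Red is higher than 0 h and blue lower, and the 6 h column has 15 starred rises and 1 starred fall.

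A search over all genes asked which probe sets had a time course like the brightest of the inducible ones. It used the 1109 probe sets that carry another single symbol and whose time means differ by at least 1 on the log2 scale, and ranked them by Pearson's r over the 8 arrays. These r describe points that share arrays and a 6 h peak, and they come without a test. To Hspa1b 1427127_x_at the most alike were Dnaja1 (0.987), Trmt10a (0.984), Hnrnph3 (0.971), Chordc1 (0.955) and Nop53 (0.940). To Hsph1 1425993_a_at they were Nop53 (0.987), Hnrnph3 (0.978), Eef1d (0.973), Ptgs2 (0.971) and Trmt10a (0.967). Chordc1, which encodes an HSP90-binding protein, averaged 2216 units at 6 h against 890.5 at 0 h, a log2 change of 1.29 ± 0.11 (limma adjusted p = 3.03e-05).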

How the data were processed

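Each sample of TTE3 RNA went onto 1 Affymetrix 430A array, and samples were grouped by the hours in their titles. What was deposited is an intensity for each probe set, linear and between 0.1 and 38130.2. The tool the authors used for this is not given in the sources used here. On every array the mean without 2% of values at each end was 500.18 to 500.2, so a common shift of all mRNA cannot be seen. Precision is limited by 2 arrays per time, and by signal over background for dim probe sets.

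After removal of 64 control probe sets, values were taken as log2(intensity + 21.9), the offset being the 20th percentile. This understates changes of dim genes, and folds are on this scale. Median log2 values differed by 0.14, under the limit of 0.3, so arrays were used as deposited. Probe sets with a mean under the 40th percentile were left out. One model with the 4 times as groups was fitted with limma 3.58.1 in R 4.3.3 (variance trend, moderated 2-sided contrasts and F-test), adjusted over all 13576 probe sets. It was also run on simulated data with independent normal noise and spreads shuffled between probe sets. This does not show how well the model suits the real arrays. Symbols come from the platform annotation: 20380 probe sets had 1 symbol, 691 several and 1555 none given.

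The members, the partner and marker lists and the tests were chosen with earlier results of these data known. Every member probe set is described. Of the partners, Hspa5, Hyou1, Dnajb1, Dnaja1, Bag3, Hspbp1, Dnajc2 and Grpel1 were always to be named, and others only if called. Hsf1, Hspa13 and Hspa12a were not analysed here, and Hspa12b and Hspa1l were too dim. Levels were compared within a probe set only. The 17 alternatives were 2 other offsets, no and a stricter filter, quantile normalization, median-centred arrays, no variance trend, fits of only the 2 times, the replicate number as a block, and each array left out in turn.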

Additional observations from a re-analysis of the deposited data

How the results depend on the processing

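Over 17 alternatives, 2130 values of member probe sets were compared: 83 lost their call, 29 gained one and 2 changed direction, while 43 changed sign without a call in either fit. Those that changed direction were Hspa9 1418503_at, whose 6 h arrays differed: at 12 h against 6 h it ran from -0.66 to 0.74 with 1 array left out (0.04 with all), and at 24 h against 6 h from -0.84 to 0.56 (-0.14 with all). Of the partners and the genes of like time course, 218 of 5466 values lost a call, 70 gained one and 0 changed direction.

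The members called were 13 at 6 h, 12 at 12 h and 12 at 24 h against 0 h, and with 1 array left out 11 to 15, 11 to 14 and 10 to 13. At 12 h against 6 h it was 10 (7 to 12, and 6 with only the 2 times), at 24 h against 12 h 6 (2 to 7, and 3 without a variance trend) and at 24 h against 6 h 13 (9 to 14). The F-test called 14 (13 to 15). Of partners, 16 were called at 6 h (12 to 19), 17 at 12 h (11 to 19) and 21 at 24 h against 0 h (10 to 22). At 12 h against 6 h it was 6 (1 to 7, 3 without a variance trend and 2 with only the 2 times), at 24 h against 12 h 3 (0 to 8, and 6 with only the 2 times) and at 24 h against 6 h 18 (8 to 18). The counts above are of probe sets and not of genes. The cause of these moves was not tested. Fits that leave an array out also have fewer arrays, and this was not separated from which array was dropped. All probe sets called numbered 2441 at 6 h (835 to 2998), 3257 at 12 h (1519 to 4147) and 4472 at 24 h against 0 h (2598 to 5201), 1130 at 12 h against 6 h (323 to 1547, and from 240 in the other alternatives), 934 at 24 h against 12 h (84 to 1650, and from 369), 3377 at 24 h against 6 h (1737 to 3829), and 5447 in the F-test (3301 to 6604).

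Replicate numbers were shared by the times. Deviations of equal numbers correlated at 0.0496 to 0.180, positive in every pair and over 0.1 in 2 of 6. The main fit did not take them as pairs, and whether samples of equal number are related was not tested. With the replicate block no member call was lost and 4 were gained: Hspa4 1416147_at at 12 h against 6 h (adjusted p = 0.0218), Hspa9 1418503_at (0.0488) and 1431274_a_at (0.0213) at 24 h, and 1418504_at at 12 h against 0 h (0.0459). Of the partner values, the block ended 0 calls and added 7, among them both Stub1 probe sets as lower at 6 h against 0 h (-0.31, adjusted p = 0.0318, and -0.30, adjusted p = 0.0377).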
